A study of Mus musculus with 6 samples.

Results

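The genes of leukemia inhibitory factor (LIF) signalling through STAT3 were examined in mouse induced pluripotent stem cells (iPSCs) profiled on microarrays. The 9 genes were Lifr, Il6st, Jak1, Jak2, Stat3, Socs3, Pim1, Pim3 and Bcl3, of 18193 genes named by the annotation of the array. They were followed through all probe sets that name 1 of these genes alone, 25 of 45037 probe sets. Of these 25, 20 were bright enough to be tested, with at least 1 for each gene.

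LIF holds mouse pluripotent cells in the undifferentiated state. It binds the receptor chain encoded by Lifr, which then pairs with gp130, the product of Il6st and the chain shared by the interleukin-6 family of cytokines. JAK kinases bound to these chains phosphorylate STAT3, which moves to the nucleus and switches on genes such as Socs3, whose product in turn blocks the receptor complex. The kinases Pim1 and Pim3 and the nuclear IκB protein Bcl3 are other known targets.

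Each of the 6 iPSC clones came from mouse embryonic fibroblasts carrying a Nanog-GFP reporter and reprogrammed with retroviral Oct3/4, Sox2, Klf4 and c-Myc. The 3 (−)/(+) clones, numbered 1 to 3, were reprogrammed without 3i, which combines PD184352 against the ERK pathway, SU5402 against the FGF receptor and CHIR99021 against GSK3, and received it only after their colonies had been isolated. The 3 (+)/(+) clones, numbered 4 to 6, had 3i already during reprogramming. Both groups were then maintained with 3i and LIF in serum medium on SNL feeder cells, a fibroblast line that itself carries a LIF gene. The comparison is therefore between clones reprogrammed with and without 3i, and does not show what LIF or 3i does when added. Which cells became clones and what 3i changed in them cannot be told apart in this design. Each sample was 1 clone on 1 array, and a p-value here measures the spread between clones. Whether feeder cells were removed before RNA isolation is not given in the sources used here.

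The cells carried the markers of their label. Signals of Pou5f1 lay between 8034 and 9793, those of Sox2 between 13222 and 16017 and those of Nanog between 12676 and 16347 in the 6 clones. Of 10 tested pluripotent cell markers, 1 was higher in (+)/(+) iPSCs, Fbxo15, which rose by 0.64 on the log2 scale (limma adjusted p = 0.0144). In 3 of the 10, Nanog and Zfp42 among them, every (+)/(+) clone lay above every (−)/(+) clone. The same held for 1171 of all 11177 tested genes. Of 7 trophectoderm and 6 endoderm markers, 4 of each could be tested and 0 were called. Krt18 (log2 difference 0.90, limma adjusted p = 0.0794) and Krt8 (0.57, limma adjusted p = 0.0906) lay higher in every (+)/(+) clone. The other tested trophectoderm markers, Eomes and Tfap2c, overlapped. Of 5 leukocyte markers 2 could be tested and 0 were called. Laptm5 had signals of 1020, 2523 and 1784 against 658, 968 and 940 (log2 difference −0.97, limma adjusted p = 0.0844), and the defining gene Ptprc, too dim to test, had means of 14.6 and 13.9. Fibroblast and feeder markers differed between the groups, as 8 of 15 tested marker genes were lower in (+)/(+) iPSCs and 0 were higher in the limma fit, where 1.41% of all tested genes were lower and 1.55% higher. The summed signal of the 17 such genes with a probe set ranged from 28413 to 35293 in (−)/(+) iPSCs and from 18115 to 22002 in (+)/(+) iPSCs. Vim and Fn1 gave most of this sum in every clone, so it is not an even measure of the 17 genes. The defining gene Col1a1 had means of only 96.0 and 42.3 and was too dim to test. In a bulk sample, fewer fibroblasts and less RNA of these genes per cell cannot be told apart.

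Signals are those of the MAS 5.0 algorithm, in arbitrary units set so that every array has the same trimmed mean. They are compared between clones within a probe set and never between probe sets. A log2 difference is the mean of log2(signal + 16) in (+)/(+) minus that in (−)/(+) iPSCs, so a negative value means lower in (+)/(+) iPSCs. A probe set is called when its limma p, adjusted over all 22518 tested probe sets by the Benjamini-Hochberg method, is below 0.05.

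By that call, none of the genes rose or fell. The number called was 0 of 20 member probe sets and 0 of 9 genes read from their highest probe set, where 3.12% of all tested probe sets and 2.96% of the 11177 genes read the same way were called. At an unadjusted limma p under 0.05 there were 5 of 20 probe sets, against 21.2% of all tested, and 3 of 9 genes, against 20.9%. The median log2 difference of the 9 genes was −0.17 beside −0.05 over all genes, with 7 genes below 0 and 2 above. Of those 7, Jak1 and Jak2 lay above 0 once the arrays were scaled to a common median. The members differed in whether the clones of the groups overlapped. In 5 of 20 probe sets every (+)/(+) clone lay below every (−)/(+) clone, where 16.6% of all tested probe sets did so. All 5 belonged to Stat3 and Socs3, both on chromosome 11, where the share was 24.2%. Read by gene, the count was 2 of 9, beside 1770 of 11177 tested genes. No test was made of these counts.

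**Figure D1:**
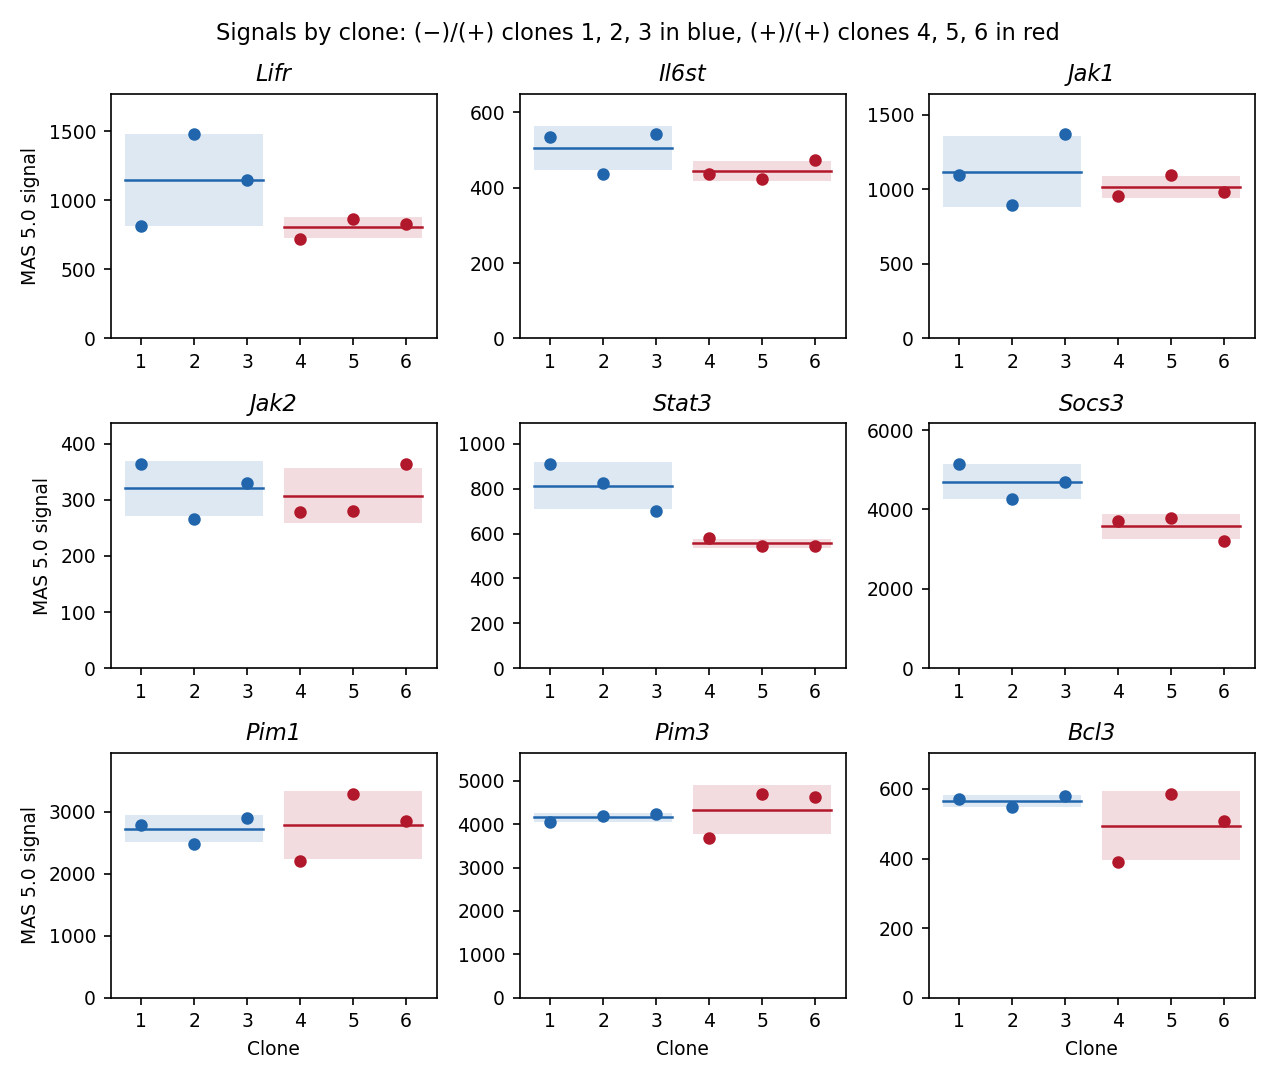
MAS 5.0 signal (vertical axis, arbitrary units, from 0) of the highest probe set of each gene in clones 1 to 6 (horizontal axis), with a line at each group mean and a band of 1 SD to either side. The (+)/(+) clones lie below all (−)/(+) clones for Stat3 and Socs3, and clone 4 is the lowest clone for Pim1, Pim3 and Bcl3.

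The promoters of Stat3 and Socs3 are shown because these were the genes whose groups separated and because the inducible arm of the pathway runs from the STAT3 protein to Socs3. Each sequence is the RefSeq window on GRCm38.p6 from 250 bases before a transcript start to 50 bases after it, read on the strand of the gene, and capitals mark the STAT motif TTCNNNGAA, which reads the same on both strands. The Socs3 window is chr11:117969317-117969616 and the Stat3 window is chr11:100939491-100939790, both on the minus strand. In both genes that start lies inside the span RefSeq gives for the whole gene.
Socs3: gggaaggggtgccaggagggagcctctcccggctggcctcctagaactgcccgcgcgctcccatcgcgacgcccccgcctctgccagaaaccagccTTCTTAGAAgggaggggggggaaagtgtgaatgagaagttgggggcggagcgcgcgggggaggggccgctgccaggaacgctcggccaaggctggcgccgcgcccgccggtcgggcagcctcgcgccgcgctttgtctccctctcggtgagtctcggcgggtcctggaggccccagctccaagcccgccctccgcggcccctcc
Stat3: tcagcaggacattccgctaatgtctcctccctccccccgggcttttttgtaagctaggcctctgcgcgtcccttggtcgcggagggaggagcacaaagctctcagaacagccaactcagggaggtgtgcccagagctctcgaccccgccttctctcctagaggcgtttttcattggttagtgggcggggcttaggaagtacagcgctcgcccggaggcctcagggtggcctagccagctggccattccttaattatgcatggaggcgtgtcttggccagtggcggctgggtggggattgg
The Socs3 window held the motif once, as TTCTTAGAA, with its first base 154 bases before that transcript start. The Socs3 window lies wholly inside the span of the gene, which on this strand begins at 117970336. The sequence around that outer end was not searched, so STAT motifs there would be missed. The Stat3 window and those of the other 7 genes held no match. Of all 32851 windows of this length, 8.3% held the motif, so a match is a description of these letters only. A second, longer form of the motif was found in 3.91% of all windows and had 0 matches in the Socs3 window. The arrays carry no measurement of binding.

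Lifr, the LIF-binding chain, had signals of 813, 1476 and 1143 in clones 1, 2 and 3, and of 717, 865 and 828 in clones 4, 5 and 6. Clones 2 and 3 lay above all (+)/(+) clones, but clone 1 lay among them, so the groups overlapped. The means were 1144 ± 332 and 804 ± 77.2 (SD, n = 3 clones each), a log2 difference of −0.47 with a 95% interval from −0.89 to −0.04 and a limma adjusted p of 0.203. Without clone 1 the log2 difference was −0.69, with a limma adjusted p of 0.0375, and without clone 2 it was −0.26, with a limma adjusted p of 0.432, so the size and the call turned on single (−)/(+) clones. The mean of its probe sets, the dim ones included, differed by −0.12 (limma adjusted p = 0.788). Its other probe sets were too dim to test, with no signal above 85.1. Lifr lies on chromosome 15 at chr15:7090610-7197489.

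Il6st, which encodes the signal-transducing chain gp130, overlapped between the groups. Its highest probe set had signals of 535, 438 and 542 in (−)/(+) clones and of 437, 423 and 473 in (+)/(+) clones, with clone 2 among the (+)/(+) values. The log2 difference was −0.17, with a 95% interval from −0.48 to 0.14 and a limma adjusted p of 0.506. The 2 other tested probe sets of Il6st had log2 differences of −0.22 and −0.10 and overlapped as well. The intervals of both receptor genes include drops as well as values close to 0, and equal expression is not shown by them.

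The kinases that carry the signal from the receptor overlapped in all 5 of their tested probe sets. Jak1, the main kinase on gp130, had signals of 1096, 891 and 1368 against 957, 1096 and 982, a log2 difference of −0.12 with a 95% interval from −0.47 to 0.22. The remaining probe sets of Jak1 gave log2 differences of −0.08 and 0.24, so they did not share a sign. Jak2 had signals of 363, 267 and 331 against 279, 280 and 364 in its highest probe set, a log2 difference of −0.06 with a 95% interval from −0.44 to 0.33. The other Jak2 probe set pointed the other way, with a log2 difference of 0.20 and a 95% interval from −0.41 to 0.80. Clone 2 was the lowest of the 6 clones in 5 of 5 probe sets of Jak1 and Jak2, whereas it was lowest in 19.3% of all tested probe sets. The kinase signals therefore varied within the (−)/(+) group by as much as between the groups.

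Stat3, the transcription factor at the centre of the pathway, had signals of 910, 825 and 702 in clones 1, 2 and 3, and of 580, 547 and 543 in clones 4, 5 and 6 in its highest probe set. The groups did not overlap, and the (+)/(+) clones lay close together. The means were 812 ± 104 and 557 ± 20.5 (SD, n = 3 clones each), 1.46 times higher in (−)/(+) iPSCs. The log2 difference was −0.53 (SE 0.13, 95% interval from −0.82 to −0.23), with an unadjusted limma p of 0.00268 and an adjusted p of 0.0624, which misses the threshold. With each array weighted by how closely its probe sets followed the group means, the adjusted limma p was 0.0391, and the gene was called. These weights were lowest for clones 1, 2 and 4, at 0.57, 0.61 and 0.61. Under a common array median the log2 difference was −0.37 (limma adjusted p = 0.13), and for the mean of its probe sets, the dim ones included, it was −0.28 (limma adjusted p = 0.3).

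The second tested probe set of Stat3 read 684, 551 and 517 against 348, 380 and 417, again without overlap, with a log2 difference of −0.59 and a limma adjusted p of 0.0631. The dim probe sets of the gene did not give 1 direction. One had 20.8, 62.1 and 48.9 against 71.3, 69.0 and 75.6, higher in every (+)/(+) clone, and the other had 68.4, 70.2 and 93.4 against 68.1, 45.7 and 27.0, lower in every (+)/(+) clone. Both had mean signals below the filter at 67.2. The exact two-sided permutation test of either tested probe set gave p = 0.1, the smallest that 3 clones against 3 allow.

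Socs3, the feedback inhibitor of the receptor complex, had signals of 5143, 4273 and 4686 in (−)/(+) clones and of 3717, 3788 and 3204 in (+)/(+) clones. Every (+)/(+) clone lay below every (−)/(+) clone. The means were 4701 ± 435 and 3570 ± 319 (SD, n = 3 clones each), a log2 difference of −0.40 (SE 0.11, 95% interval from −0.63 to −0.16) with a limma adjusted p of 0.0749. Under array weights the limma adjusted p was 0.0195, and under a common array median the log2 difference was −0.24 (limma adjusted p = 0.249). A probe set without the suffix for probes that may match other transcripts read 704, 621 and 764 against 448, 554 and 430, with a log2 difference of −0.53 and a limma adjusted p of 0.0761. The last of the 3 Socs3 probe sets read 2055, 1776 and 1858 against 1693, 1737 and 1557. It did not overlap either, but its log2 difference was −0.19, with a 95% interval from −0.43 to 0.05 and a limma adjusted p of 0.352, and under a common array median it was −0.030 (limma adjusted p = 0.905).

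**Figure D2:**
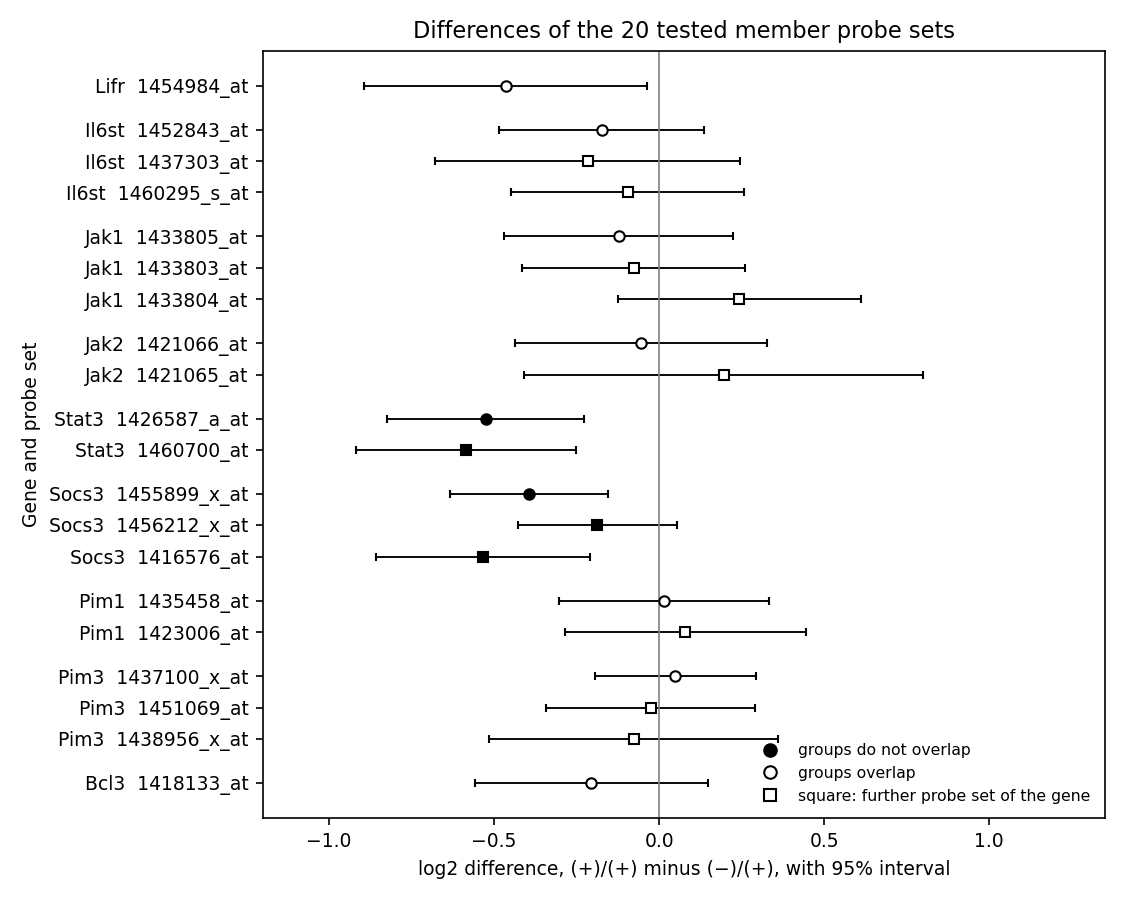
Log2 difference of each tested member probe set, (+)/(+) minus (−)/(+) iPSCs (horizontal axis), with its 95% interval from limma, filled where the groups do not overlap, and with a circle for the highest probe set of a gene and squares for the others. The 5 filled points belong to Stat3 and Socs3, and the intervals of 4 of these and of Lifr lie wholly below 0.

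Stat3 and Socs3 lie on the same chromosome, at chr11:100886806-100939594 and chr11:117966079-117970336, and genes of that chromosome moved as well. Of the 1656 tested probe sets on chromosome 11, 24.2% had every (+)/(+) clone below every (−)/(+) clone, beside the 16.6% of all. Each clone was therefore described by its log2 distance from the median of the 6 clones, for the gene and for the median of its 20 nearest expressed neighbours. Over 501 chromosome 11 genes clone 1 stood at 0.27, and the other 5 clones lay between −0.05 and 0.02.

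The neighbours of Stat3, from Smarce1 to Rpl27, stood at 0.34 in clone 1 and between −0.05 and 0.00 in the other clones. Stat3 itself stood at 0.50, 0.36 and 0.13 in clones 1, 2 and 3, and at −0.13, −0.22 and −0.23 in clones 4, 5 and 6. Clone 1 was thus raised across the region, whereas the height of clone 2 was not shared by the neighbours. The group difference of −0.53 for Stat3 stood beside −0.15 for its neighbours and was −0.38 after theirs was taken off. Without clone 1 the log2 difference was −0.44, with a limma adjusted p of 0.103.

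The neighbours of Socs3, from Snhg16 to Mrpl12, separated by group themselves. They stood at 0.24, 0.06 and 0.15 in clones 1, 2 and 3, and at −0.15, −0.11 and −0.08 in clones 4, 5 and 6, while Socs3 stood at 0.35, 0.09 and 0.22, and at −0.11, −0.09 and −0.33. The group difference of −0.40 for Socs3 stood beside −0.26 for its neighbours, which left −0.13. With all chromosome medians set equal, the log2 differences of the highest probe sets were −0.33 for Stat3 and −0.20 for Socs3, with limma adjusted p of 0.156 and 0.3. The part of these regions, and of the lower fibroblast markers, in the lower signals of both genes was not tested.

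**Figure D3:**
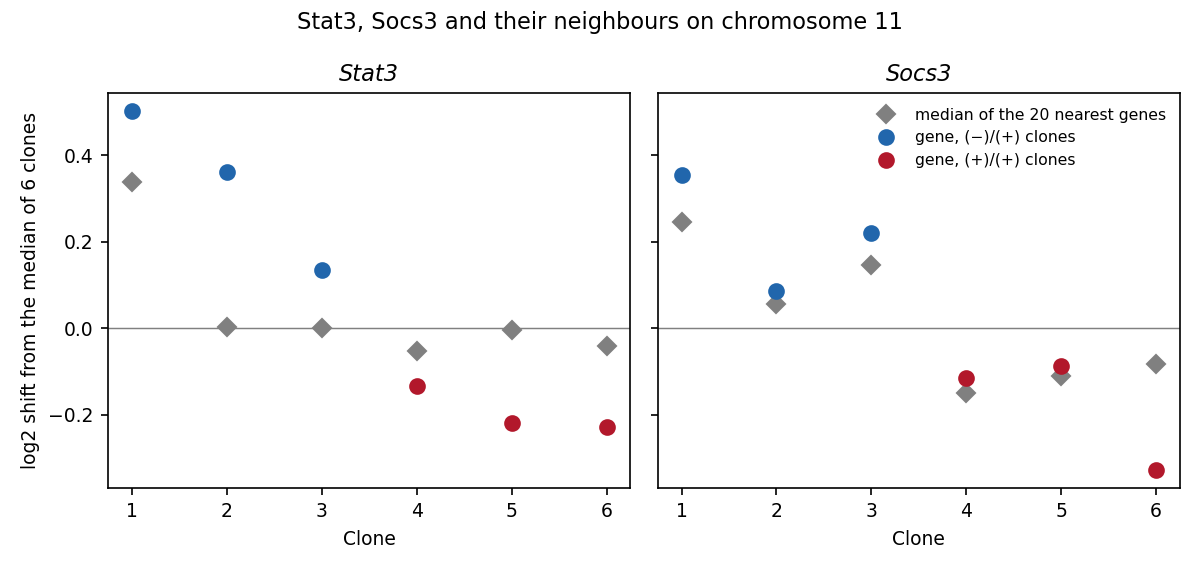
Log2 distance of each clone from the median of the 6 clones (vertical axis) in clones 1 to 6 (horizontal axis) for Stat3 and Socs3 (circles) and for the median of the 20 neighbours of each (diamonds). Clone 1 is raised in all of them, and the Socs3 neighbours separate by group as Socs3 does.

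For the other members except Bcl3 the neighbours lay on the other side of 0 from the gene. Lifr differed by −0.47 and its neighbours by 0.07, and Bcl3 differed by −0.21 and its neighbours by −0.02. The neighbours of Il6st, Jak1 and Jak2 lay at 0.14, 0.04 and 0.08, and those of Pim1 and Pim3 at −0.11 and −0.03.

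Pim1 and Pim3, which encode survival kinases, did not follow Stat3. Pim1 had signals of 2786, 2480 and 2903 against 2210, 3289 and 2851, a log2 difference of 0.02 with a 95% interval from −0.30 to 0.33 and a limma adjusted p of 0.962. Pim3 had signals of 4046, 4197 and 4243 against 3679, 4698 and 4621, a log2 difference of 0.05 with a 95% interval from −0.20 to 0.29 and a limma adjusted p of 0.831. For both, clone 4 lay below and clone 5 above all (−)/(+) clones, while clone 6 lay above them for Pim3 and among them for Pim1. The further probe sets overlapped as well, with log2 differences of 0.08 for Pim1 and of −0.03 and −0.08 for Pim3.

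Bcl3, a coactivator that works with NF-κB proteins, had signals of 570, 547 and 579 against 391, 586 and 507. The log2 difference was −0.21, with a 95% interval from −0.56 to 0.15 and a limma adjusted p of 0.49. Its (−)/(+) clones lay within an SD of 16.7, and its (+)/(+) clones within one of 98.3.

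That wider spread was shared by these 3 target genes. The member targets also include Socs3, which is counted with Stat3 here. The SD of the log2 values was larger among (+)/(+) clones in 6 of 6 tested probe sets of Pim1, Pim3 and Bcl3, beside 44.9% of all tested probe sets, 2 of 9 for Lifr, Il6st, Jak1 and Jak2, and 1 of 5 for Stat3 and Socs3. Clone 4 was the lowest clone in all 6, beside 23.7% of all tested probe sets. A low clone 4 also widens the (+)/(+) spread, so the spread and the rank of clone 4 are not separate observations. Among other STAT3 targets, clone 4 was lowest for some, such as Klf4 and Klf5, and not for others, such as Ccnd1 and Mcl1. Over all 20 member probe sets clone 4 was lowest in 9. These are counts of probe sets measured on the same 6 arrays, and no test was made of them. Clone 4 also had the lowest array median, 64.1, where the other clones had medians up to 75.7.

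**Figure D4:**
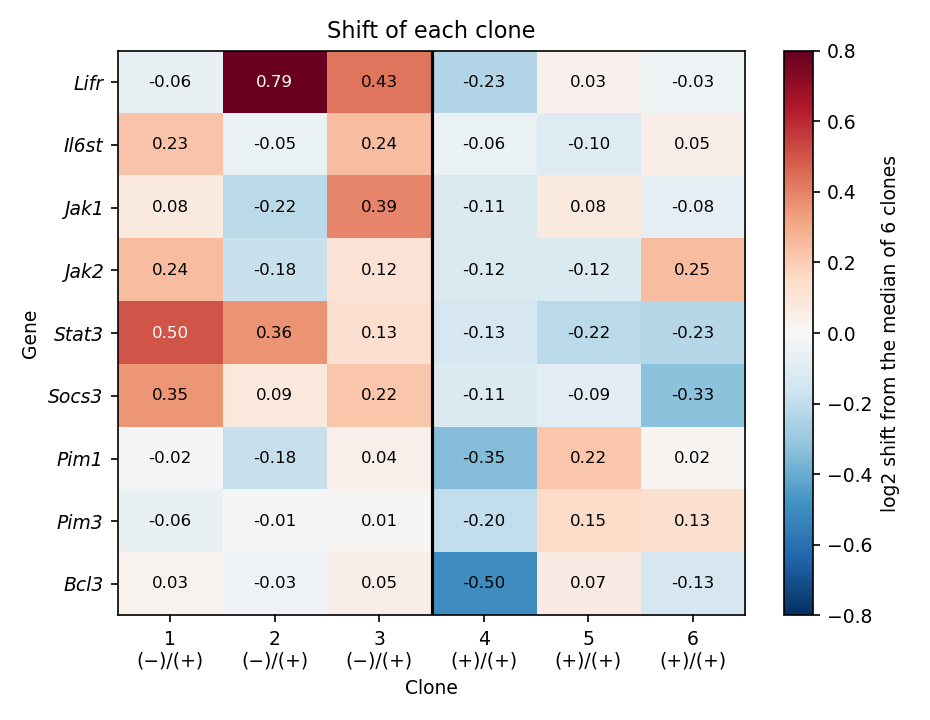
Log2 distance of each clone from the median of the 6 clones (colour) for each member gene (vertical axis) in clones 1 to 6 (horizontal axis), read from its highest probe set. Clone 1 is highest for Stat3 and Socs3, clone 2 is high for Lifr and low for Jak1 and Jak2, and clone 4 is lowest for Pim1, Pim3 and Bcl3.

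The genes whose signals followed Socs3 most closely over the 6 clones, of 6025 genes with a mean signal above 500, were Tsn, Kdm2b and Spred2. Their Pearson correlations were 0.99, 0.98 and 0.98. Kdm2b is a histone demethylase, and Spred2 is an inhibitor of RAS to ERK signalling that lies on chromosome 11. Correlations above 0.9 were found for 144 genes, and that of Stat3, 0.87, ranked 219. Lifr was at 0.33, Jak1 and Bcl3 at 0.47, Pim1 at 0.04 and Pim3 at −0.34. The 6 clones include the group difference and the raised chromosome 11 of clone 1, so these values describe a shared profile only.

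Other genes of the pathway were read from lists of 65 genes, of which 58 had a probe set of their own and 52 were tested. Of the 52, 1 was called, where 2.96% of all tested genes were, and 8 had an unadjusted limma p under 0.05, where 20.9% of all did. Their median log2 difference was −0.08 beside −0.05 over all genes. Among the cytokines of the family, 3 of 8 could be tested and 0 were called. Lif, the ligand, had signals of 86.4, 108 and 97.2 against 124, 92.2 and 85.4 and overlapped, with a log2 difference of 0.03 and a limma adjusted p of 0.95. Il6, with means of 112 ± 24.5 and 87.7 ± 19.7, also overlapped. So did Ctf1, the brightest of them, with a log2 difference of −0.13 and a limma adjusted p of 0.789.

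Of the other receptor chains, 3 were tested and 0 called. Il6ra, the brightest of them, overlapped, with a log2 difference of −0.21 and a limma adjusted p of 0.562. Osmr, the oncostatin M chain that pairs with gp130, had dim signals of 144, 127 and 189 against 89.1, 87.6 and 77.1. The groups did not overlap, with a log2 difference of −0.74, a 95% interval from −1.18 to −0.30 and a limma adjusted p of 0.0728, or 0.0136 with array weights. Osmr is strongly expressed by fibroblasts, whose markers lay lower in the same clones, and their part in this difference was not tested.

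Among 7 other JAK and STAT genes, 0 were called. Stat6, which serves interleukin-4, had means of 623 ± 42.5 and 469 ± 14.5 (SD, n = 3 clones each) without overlap, a log2 difference of −0.40 with a limma adjusted p of 0.113. Tyk2 had a log2 difference of 0.01 with a 95% interval from −0.28 to 0.31.

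The inhibitors did not share a direction, as 6 of 13 tested genes lay below 0 and 7 above, with a median of 0.01 and 0 called. Ptpn2, a phosphatase of JAKs and STATs, had means of 7288 ± 250 and 7635 ± 240 in its highest probe set, which overlapped. Its dimmest probe sets lay higher in every (+)/(+) clone, with log2 differences of 0.47 and 0.51 (limma adjusted p = 0.171 and 0.221). The remaining one overlapped, with a log2 difference of 0.17. Socs2 and Socs5 were chosen after their values were seen. Socs2, a feedback inhibitor of growth hormone signalling, had signals of 1084, 1049 and 865 against 1250, 1419 and 1312, the opposite order to Socs3, with a log2 difference of 0.41 and a limma adjusted p of 0.103. It was called under a common array median (limma adjusted p = 0.029) and with array weights (limma adjusted p = 0.0181), while the mean of its probe sets differed by 0.19 (limma adjusted p = 0.491). For Socs5 the probe sets disagreed. One fell by 0.83 on the log2 scale (limma adjusted p = 0.0332), a call lost in 9 of 17 alternatives, while the higher of the pair had a log2 difference of −0.24 (limma adjusted p = 0.537) and overlapped.

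The branch from the receptor to SHP2, RAS and PI3K had 0 of 10 genes called. Ptpn11, which encodes SHP2, had means of 1866 ± 161 and 1658 ± 103. Gab1, an adaptor of SHP2, had signals of 6087, 5934 and 5744 against 7886, 5786 and 4395, a spread within (+)/(+) iPSCs that went from the highest to the lowest of all clones. Clone 4 stood 0.43 above the median for Gab1, and the 20 neighbours of Gab1 on chromosome 8 stood at 0.45 in that clone.

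Among 16 other STAT3 target genes, 1 fell and 0 rose. Ccnd1, which encodes cyclin D1 and is also a target of other growth signals, had signals of 2645, 3066 and 4067 against 1954, 1907 and 1698. All (+)/(+) clones lay below all (−)/(+) clones. The log2 value fell by 0.79 (95% interval from −1.12 to −0.46, limma adjusted p = 0.0267), and the 2 other probe sets of Ccnd1 passed as well, with log2 differences of −0.75 and −0.83, though their calls were lost in 12 and 11 of 18 alternatives. The neighbours of Ccnd1 on chromosome 7 differed by −0.04. Leaving out clone 3, 4, 5 or 6 raised its limma adjusted p to 0.0743, 0.0646, 0.0751 or 0.13. Fibroblasts also express Ccnd1, and the part of their lower markers was not tested.

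The pluripotency factors of this list, also chosen after their values were seen, did not pass the test. Klf4, which is also a reprogramming transgene, had means of 14557 ± 1441 and 14155 ± 1291, with a log2 difference of −0.04. Tfcp2l1, a STAT3 target that sustains self-renewal, had means of 4884 ± 1291 and 3568 ± 554, a log2 difference of −0.43 and a limma adjusted p of 0.23, with overlapping clones, and was called when clone 1 was left out (limma adjusted p = 0.0325). Klf5 had a log2 difference of −0.28 and a limma adjusted p of 0.244 in its highest probe set, with overlapping clones. Its other tested probe set read 644, 717 and 536 against 401, 506 and 430, without overlap. There the log2 difference was −0.49, with a limma adjusted p of 0.109.

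**Figure D5:**
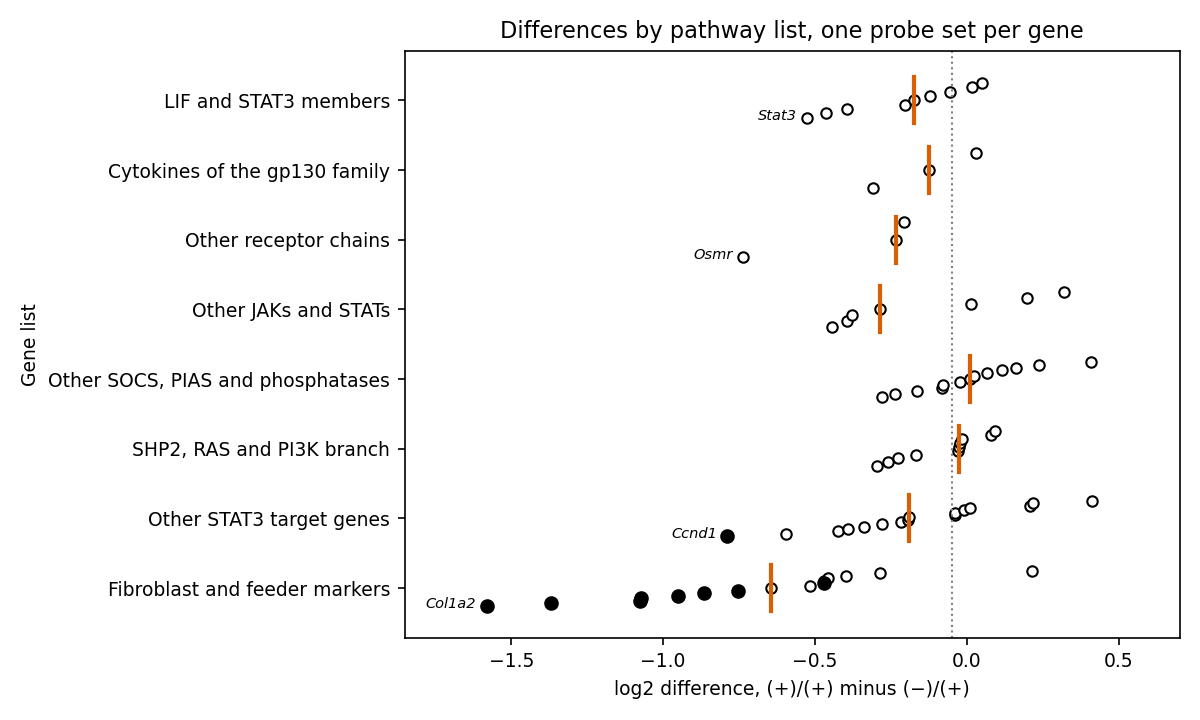
Log2 difference, (+)/(+) minus (−)/(+) iPSCs (horizontal axis), of each tested gene read from its highest probe set, by list, with filled points for genes that passed the adjusted test, a bar at each list median and a dotted line at the median of all tested genes. Of the pathway lists only Ccnd1 is filled, whereas 8 of 15 fibroblast and feeder markers are.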

How the data were processed

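RNA of 3 (−)/(+) and 3 (+)/(+) iPSC clones was hybridised to Affymetrix Mouse Genome 430 2.0 arrays. The deposited values are linear intensity signals that the authors computed with MAS 5.0, each array scaled to the same trimmed mean. The number of arrays limits the precision. From the deposited signals log2(signal + 16) was taken, probe sets whose mean exceeded the overall median (6.38, a signal of 67.2) were kept, and the groups were compared with limma 3.58.1 (trend) in R 4.3.3, with Benjamini-Hochberg adjustment. The procedure was tested on simulated data. A gene was read from its probe set with the highest mean signal. All members were named, with the genes of each other list that were called. Where none was, some of the 3 genes with the highest signals were named. The members, lists and tests were chosen with earlier results of these data known. Promoter sequences came from RefSeq (GRCm38.p6). Alternatives covered scaling, pseudocount, filter, eBayes trend, array weights, probe sets per gene, the methods' t-test, chromosome medians and leaving out clones. Scan dates and batches are not given in the sources used here. Figures were drawn with matplotlib 3.10.9 in Python 3.11.15.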

Additional observations from a re-analysis of the deposited data

How the results depend on the processing

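The analysis was repeated under 19 alternatives. Of 361 member probe set values, 317 kept their direction and side of the threshold, 9 crossed to the called side in the same direction and 35 changed sign, among them no value of Lifr or Stat3. The count of member genes called was 0, and it became 2 (Stat3 and Socs3) with array weights and 2 (the same genes) by the methods' t-test at an unadjusted p under 0.05, which gave 0 after Benjamini-Hochberg adjustment. That test was run without the minimum fold that the study also set for its arrays, which the 1.46-fold and 1.32-fold differences of Stat3 and Socs3 would not reach. Leaving out 1 clone gave 0 to 1, the 1 being Lifr without clone 1. The count of other pathway genes called was 1 (Ccnd1), and it became 2 under a common median, 0 without the filter, 0 by eBayes without trend, 3 with array weights, 0 by the methods' t-test after adjustment, 5 by that test at an unadjusted p under 0.05 and 2 without clones 1 and 4, an alternative chosen after seeing the data. Leaving out 1 clone gave 0 to 2, with 0 when clone 3, 4, 5 or 6 was left out. Why these counts moved was not tested.

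Scaling to a common median shifted the median log2 difference of all tested probe sets by 0.15 and quantile normalization shifted it by 0.08. No value that changed sign was called, and the changed values are given for the brightest probe set of a gene unless another is named. Under the common median the log2 differences were 0.051 for the dimmest tested Il6st probe set, 0.033 for Jak1 and 0.077 for its second brightest, 0.096 for Jak2, 0.13 and 0.060 for the second and the dimmest Pim3 probe sets, 0.013 for Ctf1, 0.14 for Gab1 and 0.12 for Klf4. Quantile normalization gave 0.012 for the dimmest tested Il6st probe set, 0.039 for Jak2, 0.054 for the dimmest Pim3 probe set and −0.017 for Ptpn2. Averaging the probe sets of each gene gave 0.014 for Jak1, 0.070 for Jak2, −0.018 for Pim3 and 0.11 for Ptpn11. Array weights gave 0.049 for the dimmest Pim3 probe set, −0.048 for Lif and 0.025 for Klf4. Equal chromosome medians gave 0.0057 for the second brightest Socs3 probe set, 0.063 and 0.011 for the second and the dimmest Pim3 probe sets and 0.0053 for Klf4. The methods' t-test, on the log2 ratio of mean signals, gave 0.024 for Gab1 before and after adjustment. Without clones 1 and 4 the values were 0.094 for the second brightest Il6st probe set, 0.098 for Jak2, 0.043 and 0.070 for the second and the dimmest Pim3 probe sets and −0.18 for Lif. Leaving out 1 clone at a time gave −0.27 to 0.031 for Jak1 and −0.19 to 0.045 for its second probe set, −0.18 to 0.037 for Jak2 and −0.066 to 0.53 for its second, −0.11 to 0.17 for Pim1 and −0.11 to 0.21 for its second, −0.013 to 0.16 for Pim3 with −0.11 to 0.11 for its second and −0.19 to 0.043 for its dimmest, −0.11 to 0.12 for Lif, −0.28 to 0.089 for Ctf1, −0.015 to 0.056 for Tyk2, −0.23 to 0.19 for Gab1 and −0.091 to 0.039 for Klf4.

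The minimum mean signal of 500 left the dimmer member probe sets without a value. No paired analysis was possible because the groups have no clone number in common. With 3 clones a group, the 95% intervals of Lifr and Bcl3 include the log2 difference of −0.53 seen in Stat3, while those of the brightest probe sets of Il6st, Jak1, Jak2, Pim1 and Pim3 end short of it. The second brightest Il6st probe set, with an interval from −0.68 to 0.24, does include it.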
